A study of Mus musculus with 40 samples.

Results

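The genes described here encode the histones, the proteins around which DNA is wound, in mouse oocytes and embryos with and without TDP-43. They were chosen by name and level: the symbol begins with Hist1h, Hist2h, Hist3h or Hist4h or is *H1foo*, *H1f0*, *H1fx*, *H2afx*, *H2afz*, *H3f3a* or *H3f3b*, and the mean FPKM reaches 1 in at least 1 of the 12 groups. FPKM is the number of fragments mapped to a transcript, scaled by its length and by the mapped total of the library. Of 24056 genes with values, 75 had such a symbol and 64 of these reached the level, namely 58 genes of the Hist clusters and *H1foo*, *H1f0*, *H2afx*, *H2afz*, *H3f3a* and *H3f3b*. By protein they were 5 linker histone H1, 17 H2A, 17 H2B, 12 H3 and 13 H4 genes. The highest group means of the 3 genes just below the level were 0.858 for *H1fx*, 0.938 for *Hist1h3i* and 0.97 for *Hist1h2af*, and those of the 3 genes just above it were 1.13 for *Hist1h3d*, 1.2 for *Hist1h3b* and 1.28 for *Hist1h3h*.

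The study asked what TDP-43, an RNA- and DNA-binding protein encoded by *Tardbp* (*Tdp43*), does when the embryonic genome is first transcribed. Control females were *Tdp43* flox/flox and oocyte knockout (oKO) females *Tdp43* flox/flox with *Zp3-Cre*, in which the recombinase is driven by an oocyte promoter, and all were 7 to 8 weeks old, of mixed C57BL/6J and ICR background. Collection was at 48 h after PMSG for full-grown oocytes (FGO). After HCG it was at 13 h for MII oocytes, 30 h for the 1-cell stage (1C), 36 h for the early 2-cell stage (E2C) and 48 h for the late 2-cell stage (L2C), and the embryos came from mating with ICR males. For the Trim-away experiment, 1-cell embryos received *Trim21* mRNA with an antibody against TDP-43 (KD) or with IgG (Inj-Contr), which removes the protein and not its mRNA, and were cultured to L2C. Each of the 12 groups had 2 libraries of 20 pooled oocytes or embryos. In GEO the genotype label of the 4 Trim-away libraries says the opposite of their titles, so they are named here by title, as libraries titled KD and titled Inj-Contr (NC in the title).

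Histones come in kinds that are made at different times. Replication-dependent histones (the Hist cluster genes) are made in many near-identical copies during S phase, and their mRNAs end in a conserved stem-loop, bound by SLBP and cut by the U7 machinery, in place of a poly(A) tail. Replacement histones such as H3.3 and H2A.Z are made from single, polyadenylated genes at any time. Oocytes store histone mRNA and protein for the cleavage divisions, and carry an oocyte linker histone, H1FOO, which gives way to somatic H1 after fertilization. The libraries were made with Smart-seq2, which primes on poly(A), so values of the Hist cluster genes read mainly those transcripts that carry a tail, and changes in tail and in amount cannot be told apart.

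The stem-loop is shown because it is what separates these mRNAs from the replacement histone mRNAs. A 16-base stem-loop with paired arms was sought within 200 bases after the stop codon in mm9. It was found in 55 of the 58 Hist cluster genes and in *H2afx*, and in 0.324% of 21930 coding genes. It was not found in *H1foo*, *H2afz*, *H3f3a*, *H3f3b*, *Hist1h2an* or *Hist2h2bb*. *H1f0* and *Hist2h3c2* have no annotated stop codon, so they had no window to search. There were 9 forms, and the arms are in capitals below, from RNA sense strand written as DNA. The commonest form was in 34 genes and is given for *Hist1h2bc* (chr13:23776516-23776531 on the plus strand). The second, in 8 H4 genes, is given for *Hist1h4d* (chr13:23673819-23673834 on the plus strand), and *Hist1h4c* and *Hist4h4* carry the same letters. The third was in 6 genes and is given for *Hist1h2ba* (chr13:24025599-24025614 on the minus strand), and the form of *Hist1h4i* (chr13:22132835-22132850 on the minus strand) was in 2.
Hist1h2bc: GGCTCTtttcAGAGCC
Hist1h4d: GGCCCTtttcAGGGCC
Hist1h2ba: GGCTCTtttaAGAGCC
Hist1h4i: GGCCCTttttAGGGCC

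The 3 H4 genes that moved in different directions between the groups, *Hist1h4d*, *Hist1h4c* and *Hist4h4*, share this stem-loop and encode the same protein, of 103 residues, as do all 13 H4 genes. Their promoters differ and are shown for that reason, from 250 bases before to 50 after the start, from RefSeq on GRCm38.p6, with matches to TATAAA (the TATA box) and CCAAT (the CCAAT box) on either strand in capitals. The regions are chr13:23581318-23581617 on the plus strand for *Hist1h4d*, chr13:23698409-23698708 on the minus strand for *Hist1h4c* and chr6:136804382-136804681 on the minus strand for *Hist4h4*.
Hist1h4d: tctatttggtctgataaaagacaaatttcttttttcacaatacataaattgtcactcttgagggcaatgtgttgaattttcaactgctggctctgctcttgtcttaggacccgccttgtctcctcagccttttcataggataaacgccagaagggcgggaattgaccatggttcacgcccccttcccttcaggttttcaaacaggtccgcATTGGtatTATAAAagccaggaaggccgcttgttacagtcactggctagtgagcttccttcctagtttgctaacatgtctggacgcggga
Hist1h4c: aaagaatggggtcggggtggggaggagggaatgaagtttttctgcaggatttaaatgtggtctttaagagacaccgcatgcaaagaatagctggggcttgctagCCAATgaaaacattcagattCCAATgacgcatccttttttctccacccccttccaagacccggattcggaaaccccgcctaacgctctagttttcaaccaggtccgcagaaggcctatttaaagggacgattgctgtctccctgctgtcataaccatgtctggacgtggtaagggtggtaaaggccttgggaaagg
Hist4h4: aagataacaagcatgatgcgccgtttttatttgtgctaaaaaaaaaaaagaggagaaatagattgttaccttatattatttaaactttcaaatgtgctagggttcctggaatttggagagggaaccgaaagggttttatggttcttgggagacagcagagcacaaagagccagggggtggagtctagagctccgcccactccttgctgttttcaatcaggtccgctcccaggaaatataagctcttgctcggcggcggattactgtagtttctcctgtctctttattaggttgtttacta
The *Hist1h4d* window held both motifs, that of *Hist1h4c* held CCAAT and that of *Hist4h4* held neither. Over the 58 genes matched in the table, 32 promoters held TATAAA (55.2%, against 13.6% of 32851 promoters of the same length) and 48 held CCAAT (82.8% against 37.4%). CCAAT was in every H1, H2A, H2B and H3 promoter of the Hist clusters that was matched and in 3 of 12 H4 promoters. The octamer ATTTGCAT was in 7 of 14 H2A and 6 of 16 H2B promoters, and in 1.74% of all promoters. A match says only that these letters are in the window.

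The 47 Hist1 genes lie on chr13:21807632-24026720, the 8 Hist2 genes on chr3:96024284-96082924, the 2 Hist3 genes on chr11:58762413-58770176 and *Hist4h4* on chr6:136752589-136752900 in mm9. Copies share reads: *Hist2h2aa1* with *Hist2h2aa2*, *Hist1h2ao* with *Hist1h2ap*, *Hist1h4m* with *Hist1h4n* and *Hist1h2bq* with *Hist1h2br* have identical coding sequences, and each pair had values in a near-constant ratio (for *Hist2h2aa1* over *Hist2h2aa2*, 1.06 to 1.07). *Hist2h3c1* and *Hist2h3c2* also kept a near-constant ratio (3.60 and 6.09 FPKM against 3.68 and 6.23 in control 1C), without a comparison of coding sequences. Each such pair is 1 measurement, counted as 2 genes below. The *Hist2h3c1* pair was called at the control steps to 1C and to E2C.

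*Tardbp* was lower in every oKO library than in every control library of its stage (log2 fold change -1.22 in E2C to -3.19 in 1C, all called). It was 3.65 and 3.85 FPKM in the libraries titled KD and 5.29 and 5.95 in those titled Inj-Contr, which does not check a protein knockdown. Replicate libraries correlated at 0.967 to 0.992 (Pearson, across genes). Summed FPKM over all genes was 124265 and 126713 in oKO L2C against 209102 and 215926 in control L2C, and was 301587 to 432671 in the other oKO and control libraries. Summed over 10 oocyte genes, FPKM was 4609.5 to 30046 across the libraries, although single genes such as *Mos* were low in L2C (values below). Markers of granulosa, male germ, blood and oviduct cells summed to at most 198. That highest value was of blood markers in 1C control replicate 1, against 22.9 in replicate 2 and 5.04 and 2.35 in 1C oKO. Blood markers also summed to 115 and 143 in the libraries titled KD and 74.1 and 50.6 in those titled Inj-Contr. Of 3 tested there 0 were called, and their part in the histone values was not tested. No source used here says that replicate pools came from separate animals, so each p-value sets a difference against the spread of these pools alone, and an exact permutation of 2 against 2 libraries could not go below 0.333.

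By level, *H1foo*, *H3f3b*, *H3f3a* and *H2afz*, all outside the clusters, stood above the others. Over the 24 libraries the mean FPKM was 1290 for *H1foo*, 1095 for *H3f3b* and 573 for *H3f3a*, the pair encoding H3.3, and 351 for *H2afz*, which encodes H2A.Z. The leading cluster genes were *Hist1h2bc* (61.3), *Hist1h4d* (26.6), *Hist1h2aa* (23.6), *Hist1h4c* (20.4), *Hist1h2ap* (19.0), *Hist1h2ba* (15.7) and *Hist1h1a* (11.3). *Hist1h3g* (2.94) and *Hist2h3b* (2.40) led the replication-dependent H3 genes. *H3f3a* and *H3f3b* made up 96.5% to 99.7% of summed H3 FPKM in every library, and *H1foo* 99.2% to 99.6% of summed H1 FPKM in oocytes. As the libraries prime on poly(A), ranks and shares between these genes and the cluster genes do not hold for all histone mRNA. Of the 58 cluster genes, 18 reached a mean of 10 FPKM in a control group and 34 stayed under 5 in all 5 control groups.

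**Figure D1:**
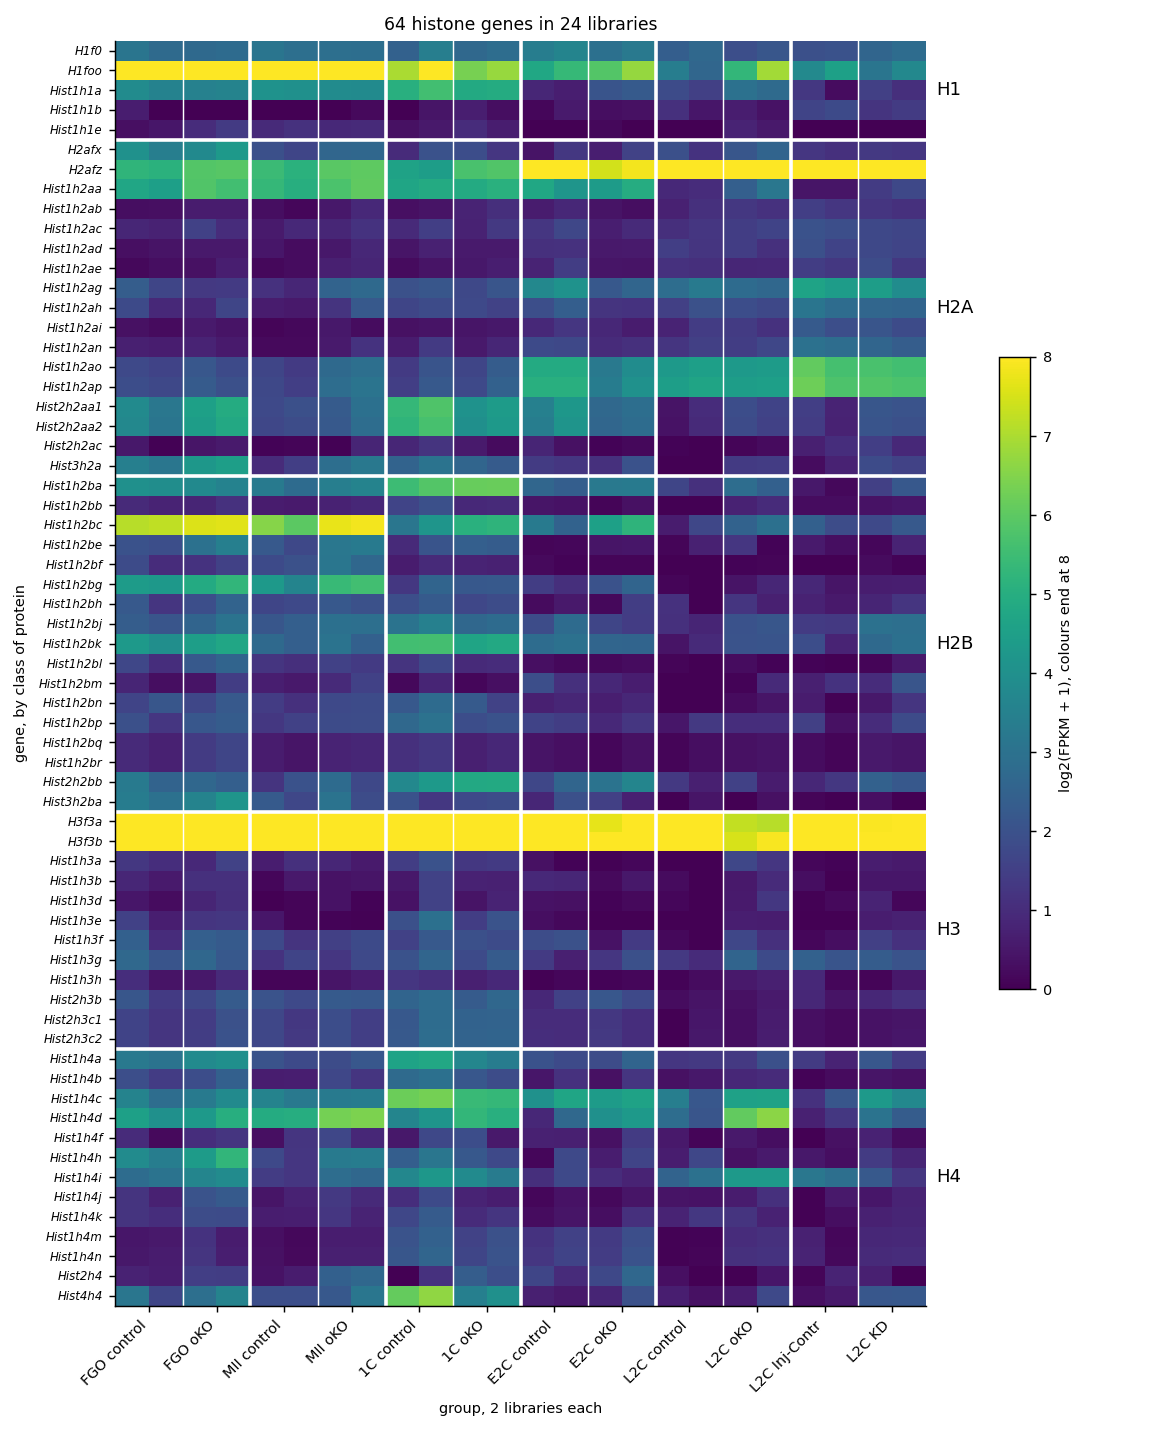
Heat map of log2(FPKM + 1) for the 64 histone genes (vertical, grouped by class of protein) in the 24 libraries (horizontal, 2 columns per group). H1foo is bright in oocytes, H2afz from E2C on, H3f3a and H3f3b in all groups, and many cluster genes are brightest in control 1C embryos.

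Most cluster genes were at their highest in 1C among the control groups. Of the 58, the control group with the highest mean was FGO for 6, MII for 5, 1C for 34, E2C for 9 and L2C for 4. Summed FPKM of the cluster genes was 427 and 357 in control FGO, 284 and 230 in MII, 525 and 714 in 1C, 204 and 235 in E2C and 96.2 and 103 in L2C. The libraries of 1C thus lay above and those of L2C below every other control library. A stage and the day or batch of its collection cannot be told apart.

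**Figure D2:**
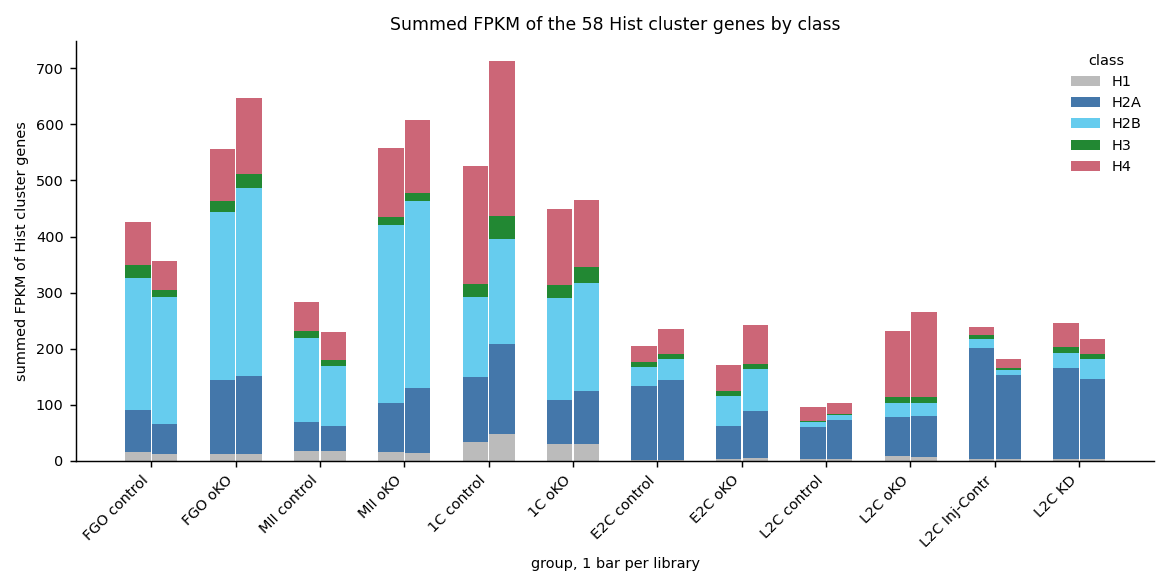
Summed FPKM of the 58 Hist cluster genes (vertical, from 0), 1 bar per library, stacked by class of protein. Control 1C libraries reach 525 and 714, control L2C libraries 96.2 and 103, and oKO L2C libraries 231 and 265.

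From FGO to MII, 12 of 41 histone genes tested fell and 0 rose (Benjamini-Hochberg adjusted p at most 0.05 and at least 2-fold in limma, the call used throughout). Over all genes 27.9% were called lower and 7.98% higher, so the share of histone genes that fell, 12 of 41, was near the background. At an unadjusted p under 0.05, limma had 5 histone genes higher and 17 lower. The share of all genes at that p was not computed, so unadjusted counts here and below have no background. Median-ratio scaling gave 1 higher and 7 lower (1160 and 1864 of all genes, against 688 and 2406). *H2afx*, which encodes the H2A.X that is phosphorylated at DNA breaks, was 15.6 and 9.76 FPKM in FGO and 2.88 and 2.17 in MII, a 5.02-fold fall in the ratio of the group means, as are all folds below, while log2 values come from the fit on log2(FPKM + 1) (log2 -1.93 ± 0.32 SE, adjusted p = 3.33e-05). *Hist1h4h* fell from 13.4 and 9.48 to 2.37 and 1.38, *Hist3h2a* from 9.98 and 7.80 to 0.963 and 1.81 and *Hist2h2aa1* from 13.1 and 8.10 to 2.39 and 2.86. No library of MII reached the level of an FGO library in any of these genes. They were picked because they were called between 2 and 2 libraries, so a lack of overlap adds no separate support, here or below. The share of all genes without overlap was not computed. *H1foo* was 2687 and 2314 FPKM in FGO and 5739 and 3999.9 in MII (log2 0.94, under the 2-fold threshold), and *H3f3a* and *H3f3b* differed by 0.58 and 0.45.

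From MII to 1C, 24 of 49 histone genes tested rose (14.4% of all genes) and 5 fell (11.1%). *H1foo* fell from 5739 and 3999.9 FPKM to 126 and 251, 25.8-fold (log2 -4.74 ± 0.37, adjusted p = 1.47e-08), and the other linker gene in quantity, *Hist1h1a* (H1.1), rose from 15.7 and 15.2 to 32.4 and 47.3. *Hist2h2aa1* rose from 2.39 and 2.86 to 39.0 and 54.1 (log2 3.70 ± 0.27, adjusted p = 2.78e-09). The H2B gene *Hist1h2bk* rose 9.44-fold, from 5.65 and 4.34 to 46.8 and 47.6, and *Hist1h2ba*, which encodes the testis and oocyte variant TH2B, 6.91-fold. Other H2B genes went down: *Hist1h2bc* fell from 92.9 and 62.1 to 7.75 and 17.0 (log2 -2.62), *Hist1h2bg* from 18.6 and 11.1 to 1.46 and 4.97, and *Hist1h2bf* by 1.10 on the log2 scale. No 1C library overlapped an MII library in any of these genes.

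Of 12 H4 genes tested at this step 9 rose and 1, *Hist1h4d*, fell, from 29.3 and 30.3 FPKM to 11.6 and 17.2. *Hist4h4* rose most, from 2.75 and 2.81 to 68.5 and 100.2, 30.3-fold (log2 4.47 ± 0.42, adjusted p = 1.09e-07). *Hist1h4c* rose 7.87-fold, from 11 and 8.47 to 73.3 and 79.9, *Hist1h4a* 9.08-fold and *Hist1h4i* 9.66-fold. Of the replication-dependent H3 genes, *Hist1h3e* was 0.412 and 0.0694 in MII and 2.89 and 6.70 in 1C, and rose by 2.16 on the log2 scale. The count of called genes was 31 without 1C control replicate 1, the library with the blood markers, against 29 with it.

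From 1C to E2C, 29 of 51 histone genes tested fell (37.4% of all genes) and 6 rose (8.33%). *H1foo* fell further, to 26.4 and 40.5 FPKM, and *Hist1h1a* from 32.4 and 47.3 to 0.831 and 0.580 (log2 -4.56 ± 0.27, adjusted p = 2.97e-10). *Hist4h4* fell to 0.628 and 0.455 (log2 -5.77 ± 0.55, adjusted p = 9.97e-08), *Hist1h2ba* from 43.5 and 57.6 to 5.20 and 4.26, and *Hist1h4a* from 24.1 and 27.0 to 3.07 and 2.50. The genes that rose were *H2afz* and *H3f3b* and 4 genes of the Hist1 cluster. *H2afz* rose 14.9-fold, from 23.2 and 20.9 to 360 and 299 (log2 3.84 ± 0.18, adjusted p = 1.29e-11), *H3f3b* from 686 and 704 to 2099 and 1671, and *H3f3a* fell from 733 and 624 to 380 and 292. *Hist1h2ap* rose from 1.78 and 3.67 to 32.2 and 31.7, with its copy *Hist1h2ao*, and *Hist1h2ag* rose 4.46-fold. *Hist1h2bm* rose by 1.01 on the log2 scale (adjusted p = 0.0478), a call lost under 5 alternatives. After median-ratio scaling 10 histone genes rose and 13 fell (1694 and 934 of all genes, against 668 and 3002), so the balance of this step depends on the scaling.

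From E2C to L2C, 13 of 33 histone genes tested fell (23% of all genes) and 1 rose (39.8%). *Hist1h2aa*, which encodes the testis and oocyte variant TH2A, fell from 26.1 and 17.0 FPKM to 0.882 and 1.02 (log2 -3.51 ± 0.28, adjusted p = 3.88e-09). *Hist2h2aa1* fell from 10.3 and 17.8 to 0.333 and 1.00, *H3f3b* from 2099 and 1671 to 296 and 348, *Hist1h2bk* 10.3-fold and *H1foo* to 9.53 and 5.30. The gene that rose was *Hist1h4i*, from 1.13 and 2.42 to 4.89 and 6.99, and it was not called without E2C control replicate 1. *H2afz* was 459 and 520 in L2C (log2 0.57, under the threshold) and *H3f3a* 325 and 356 (log2 0.03). Median-ratio scaling gave 21 lower and 1 higher (2404 and 2900 of all genes, against 1878 and 3253).

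**Figure D3:**
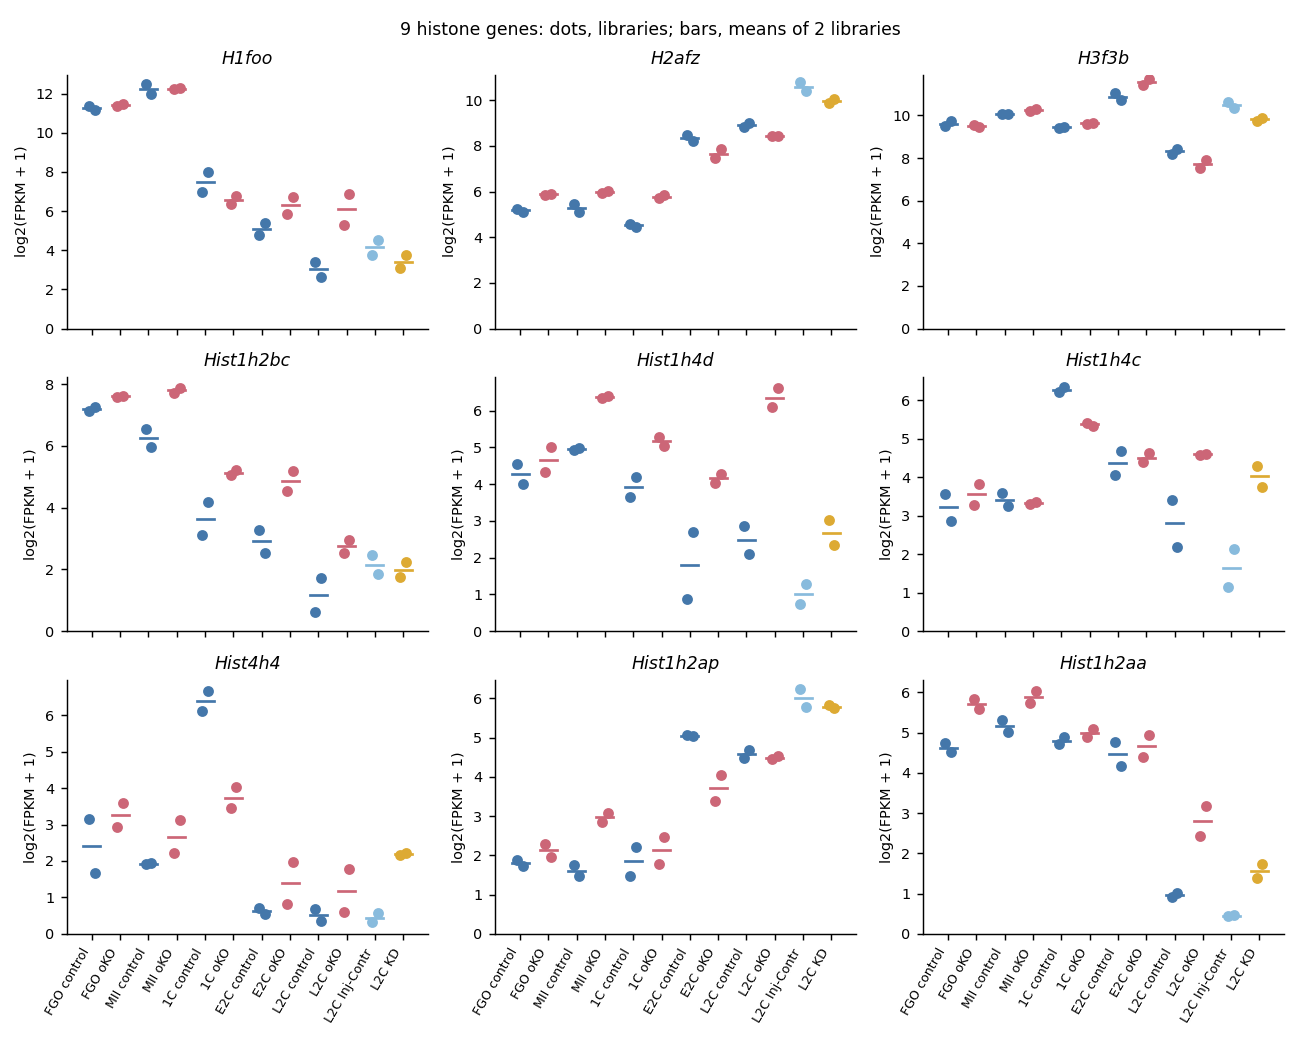
Level of 9 histone genes, as log2(FPKM + 1) from 0, in the 12 groups (2 dots for 2 libraries, bar for their mean). Hist4h4 is highest in control 1C, with 68.5 and 100.2 FPKM against 9.98 and 15.3 in oKO 1C, and Hist1h4d of oKO libraries lies above control from MII to L2C.

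In FGO, histone genes called between oKO and control were all higher in oKO: 8 of 48 tested, and 0 lower (1.7% and 1.31% of all genes). The median difference was 0.48 on the log2 scale over the 48 and 0.04 over all genes. They were H2A, H2B and H4 genes. *Hist2h2aa1* was 13.1 and 8.10 FPKM in control and 22.5 and 29.6 in oKO (2.46-fold, log2 1.24 ± 0.25, adjusted p = 0.0032). *Hist1h2be* was 3.08 and 2.82 in control and 6.86 and 9.87 in oKO, *Hist1h4h* 13.4 and 9.48 against 19.8 and 37.6, and *Hist1h4j* 1.32 and 0.670 against 3.16 and 3.85. The oKO libraries lay above the control libraries in each, as in *Hist1h2aa* (25.6 and 21.8 against 56.1 and 46.9), *Hist3h2a* and *Hist1h2bl*. *H1foo*, *H3f3a* and *H3f3b* differed by 0.13, -0.14 and -0.09, and *H2afz* was 36.7 and 33.6 against 57.1 and 59.3 (log2 0.71, adjusted p = 0.00152, under the 2-fold threshold). The count fell to 1 without FGO control replicate 2 or FGO oKO replicate 2 and to 5 without FGO oKO replicate 1, and no call held under every alternative. It was 5 after median-ratio scaling (85 higher and 101 lower of all genes, against 152 and 117), with 0 lower in each. At an unadjusted p under 0.05, limma had 23 higher and 1 lower, again with no share of all genes computed. Blood markers summed to 1.13 and 0.729 FPKM in control and 29.8 and 3.38 in oKO FGO (1 of 3 called higher), 1 of 3 male germ cell markers was called lower, and their part in these values was not tested.

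In MII oocytes, 13 of 42 histone genes tested were higher in oKO and 0 lower (4.29% and 1.38% of all genes). Their median was 0.66, against -0.07 over all genes. At an unadjusted p under 0.05, limma had 21 higher and 0 lower, with no share of all genes computed. Of the H2A genes, *Hist3h2a* was 0.963 and 1.81 FPKM in control and 6.41 and 8.24 in oKO (log2 1.82 ± 0.23, adjusted p = 1.73e-05), and *Hist1h2ag* 1.22 and 0.797 against 4.79 and 5.71. *Hist1h2ap* with its copy *Hist1h2ao* and *Hist1h2ah* were also called. Of the H2B genes, *Hist1h2bc* was 92.9 and 62.1 against 211 and 233 (log2 1.53 ± 0.31, adjusted p = 0.00179), and *Hist1h2bg* 18.6 and 11.1 against 40.6 and 46.8. *Hist1h2be* and *Hist1h2bf* were called as well. The oKO libraries were above the control libraries in each of these genes.

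The H4 genes called in MII oocytes were *Hist2h4* (0.314 and 0.539 FPKM in control, 4.52 and 5.38 in oKO, log2 2.06 ± 0.30, adjusted p = 8.4e-05), *Hist1h4h* (2.37 and 1.38 against 8.73 and 9.32), *Hist1h4d* (29.3 and 30.3 against 79.7 and 84.0) and *Hist1h4i* (1.69 and 1.40 against 6.32 and 5.35). None of 7 H3 genes or 3 linker genes tested was called, and *H1foo* differed by 0.02. *H2afz* was 43.1 and 33.7 against 60.9 and 64 (log2 0.70, under the threshold). In the same oocytes 2 of 10 oocyte genes, *Zp3* and *Figla*, were called higher and 0 lower, and their part in the result was not tested. Without MII oKO replicate 2 the count was 8, and *Hist1h2bg* alone was called under every alternative in which it was tested.

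In 1C embryos, 4 of 52 histone genes tested were higher in oKO and 4 lower (1.75% and 2.46% of all genes). The genes higher were *H2afz*, 23.2 and 20.9 FPKM in control and 51.1 and 56.1 in oKO (log2 1.24 ± 0.14, adjusted p = 7.93e-06), *Hist2h4* (0 and 1.19 against 4.14 and 2.78), *Hist1h2bc* (7.75 and 17.0 against 32.6 and 36.0) and *Hist1h4d* (11.6 and 17.2 against 38.2 and 31.8). Every oKO library was above every control library in these. Of the genes lower, *Hist4h4* was 68.5 and 100.2 in control and 9.98 and 15.3 in oKO, 6.68-fold lower (log2 -2.65 ± 0.43, adjusted p = 0.000414). *Hist2h2aa1* with its copy was 39.0 and 54.1 against 16 and 19.8, and *Hist1h4a* 24.1 and 27.0 against 11.9 and 9.26, again with no overlap. *Hist1h4c* was 73.3 and 79.9 against 41.7 and 39.4 and *Hist1h2bk* 46.8 and 47.6 against 24.2 and 27.5, both under the 2-fold threshold. *H1foo* was 126 and 251 against 81.0 and 109 (log2 -0.92, adjusted p = 0.0967).

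The count in 1C rested on single libraries. It was 3 without oKO replicate 1, 5 without oKO replicate 2 and 13 (2 higher, 11 lower) without control replicate 1, which had the blood markers, and *H2afz* and *Hist4h4* were called under every alternative in which they were tested. Median-ratio scaling gave 4 higher and 3 lower, and 176 and 90 of all genes against 144 and 202.

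In E2C embryos, 3 of 40 histone genes tested were higher in oKO and 3 lower (3.68% and 8.13% of all genes). *Hist1h4d* was 0.850 and 5.44 FPKM in control and 15.2 and 18.6 in oKO (log2 2.37 ± 0.51, adjusted p = 0.00317), *Hist1h2bc* 8.81 and 4.74 against 22.3 and 35.8, and *Hist1h1a* 0.831 and 0.580 against 3.20 and 3.76. The oKO libraries were higher without overlap in all 3. The genes lower were *Hist1h2ag* (12.4 and 15.9 against 3.60 and 5.09) and *Hist1h2ap* with its copy (32.2 and 31.7 against 9.37 and 15.5, log2 -1.34 ± 0.36, adjusted p = 0.0156). *H2afz* was 360 and 299 against 175 and 231 (log2 -0.70) and *H3f3b* 2099 and 1671 against 2743 and 3352 (log2 0.70), both under the threshold, and *H1foo* was 26.4 and 40.5 against 57.4 and 105 (log2 1.22, adjusted p = 0.146). Markers of male germ cells summed to 12.2 and 18.0 FPKM in control and 1.48 and 1.72 in oKO E2C. Granulosa markers summed to 1.34 and 0.887 against 3.85 and 2.73 (1 of 1 called higher), 1 of 10 oocyte genes was called higher, and the part of these markers was not tested. Without E2C control replicate 2 only 1 histone gene was called and without control replicate 1 there were 2. No call held under every alternative. Without weights 6 were higher and 6 lower (275 and 620 of all genes, against 245 and 541). Median-ratio scaling gave 3 higher and 1 lower (398 and 488 of all genes).

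In L2C embryos, 13 of 30 histone genes tested were higher in oKO and 1 lower, while over all genes 6.8% were called higher and 40.7% lower. The median was 0.35 over the histone genes tested and -0.79 over all genes. *H1foo* was 9.53 and 5.30 FPKM in control and 38.3 and 117 in oKO (10.4-fold, log2 3.06 ± 0.46, adjusted p = 1.92e-05), and *Hist1h1a* 2.54 and 1.87 against 7.00 and 5.80. The variant genes *Hist1h2aa* (0.882 and 1.02 against 4.37 and 8.07) and *Hist1h2ba* (2.2 and 1.15 against 6.29 and 4.51) were both higher. So were the H2B genes *Hist1h2bc* (0.529 and 2.29 against 4.74 and 6.82), *Hist1h2bk* and *Hist1h2bj*, *Hist2h2aa1* with its copy, and *Hist1h3g*. In each of these genes no oKO library fell to a control level, although both oKO libraries differ from each other for *H1foo*.

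Of 5 H4 genes tested in L2C, 3 were higher in oKO. *Hist1h4d* was 6.30 and 3.28 FPKM in control and 67.1 and 97.1 in oKO, 17.1-fold higher (log2 3.87 ± 0.42, adjusted p = 3.58e-07). *Hist1h4c* was 9.66 and 3.55 against 23.1 and 23.4 (log2 1.80) and *Hist1h4i* 4.89 and 6.99 against 18.8 and 18.8 (log2 1.53). These and *H1foo* were called under every alternative in which they were tested. Among the replacement genes *H3f3a* was called lower, at 325 and 356 in control and 152 and 139 in oKO (limma, log2 -1.22 ± 0.18, adjusted p = 1.2e-05). Under the threshold were *H3f3b*, 296 and 348 against 182 and 239 (log2 -0.62), and *H2afz*, 459 and 520 against 350 and 350 (log2 -0.48). The log2 values of *H3f3b* and *H2afz* were less negative than the median over all genes (-0.79). Relative to the median of all genes *H3f3a* was 0.43 lower and *Hist1h4d* 4.66 higher, and after median-ratio scaling *H3f3a* was not called, 19 histone genes were higher and 0 lower, and 1362 and 1444 of all genes were called (528 and 3158 before).

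These are pools of whole embryos, and FPKM is scaled to the mapped total of each library. It gives neither the number of cells nor the RNA per cell, so differences in these cannot be told apart. Summed FPKM of the cluster genes was 96.2 and 103 in control L2C and 231 and 265 in oKO L2C, so that both oKO libraries lay above both control libraries. After Trim-away it was 245 and 218 in KD and 239 and 181 in Inj-Contr, which overlap. Summed FPKM over all genes was 236616 and 259394 in KD and 330831 and 307468 in Inj-Contr. The sums of the cluster genes were not scaled to these totals in either experiment. In oKO L2C embryos 3 of 9 oocyte genes tested were also higher and 0 lower. *Gdf9* was 11.4 and 12 FPKM in control and 39.0 and 51.8 in oKO, *Oosp1* 558 and 390 against 1712 and 1901 and *Mos* 1.24 and 0.312 against 4.30 and 5.02. The part of retained oocyte RNA in the histone values was not tested.

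In the Trim-away L2C embryos, 8 of 36 histone genes tested were higher in the libraries titled KD than in those titled Inj-Contr and 1 lower (7.79% and 8.35% of all genes). *Hist1h4c* was 1.21 and 3.42 FPKM in Inj-Contr and 18.7 and 12.4 in KD (log2 2.38 ± 0.43, adjusted p = 0.000819). *Hist4h4* was 0.250 and 0.475 against 3.48 and 3.65, *Hist1h4d* 0.656 and 1.45 against 7.18 and 4.04, and *Hist1h2bj* 1.64 and 1.5 against 6.95 and 6.52. *Hist1h2aa* (0.364 and 0.374 against 1.61 and 2.35), *Hist1h2ba* (0.434 and 0.133 against 1.85 and 3.57), *Hist1h2bk* and *Hist3h2a* were also higher. *Hist1h4i* was lower, 8.01 and 6.60 against 3.72 and 1.40 (log2 -1.30 ± 0.34, adjusted p = 0.00941). The libraries did not overlap in any of the 9, which were picked because they were called.

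Under the 2-fold threshold, *H2afz* was 1792 and 1345 FPKM in Inj-Contr and 929.9 and 1062 in KD (log2 -0.64), *H3f3a* 506 and 407 against 244 and 319 (log2 -0.70), and *H3f3b* 1607 and 1303 against 851 and 957 (log2 -0.68). *H1foo* was 12.7 and 22.3 against 7.66 and 12.3 (log2 -0.73, adjusted p = 0.314). With no filter on low values 4 histone genes were called in this experiment, without KD replicate 2 there were 5, and *Hist1h4c* alone was called under every alternative in which it was tested.

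Across the 6 comparisons of TDP-43 loss with its control, which share no library, 29 of 61 histone genes tested were called at least once (47.5%, near the 43.7% of 11227 genes over all). *Hist1h4d* was called in 5 and higher in each, with fold changes on the log2 scale of 1.43 in MII, 1.25 in 1C, 2.37 in E2C, 3.87 in L2C and 1.67 after Trim-away, where the sign rests on the titles of the libraries and would turn with the genotype label. In FGO it was 22.6 and 15.1 FPKM in control and 18.9 and 31.5 in oKO (log2 0.39, adjusted p = 0.476). *Hist1h2bc*, an H2B gene annotated in mm9 with a spliced form that ends 7826 bases past its stem-loop at a poly(A) signal, was called higher in 4, from MII to L2C. *Hist1h2aa*, *Hist3h2a*, *Hist1h4i* and the *Hist2h2aa1* pair were called in 3, and the *Hist2h2aa1* pair was lower in 1C and higher in FGO and L2C. *Hist1h4i* was higher in MII and L2C and lower after Trim-away, the latter again by title only. *Hist1h4d* is annotated with 1 exon that ends 25 bases past its stem-loop. The log2 fold change of oKO was more positive in L2C than in E2C in 12 of 38 histone genes tested and more negative in 1 (8.51% and 29.6% of all genes, limma interaction), and more positive in oKO L2C than after Trim-away in 4 of 34 and more negative in 1 (3.19% and 25%). With the Trim-away groups exchanged, an alternative chosen after seeing the data, the latter counts were 14 and 3 (1059 and 3624 of 8152 genes over all, against 260 and 2035). After median-ratio scaling these counts were 17 and 0, and 9 and 0 (1162 and 1105, and 750 and 383, of all genes, against 667 and 2317, and 260 and 2035).

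**Figure D4:**
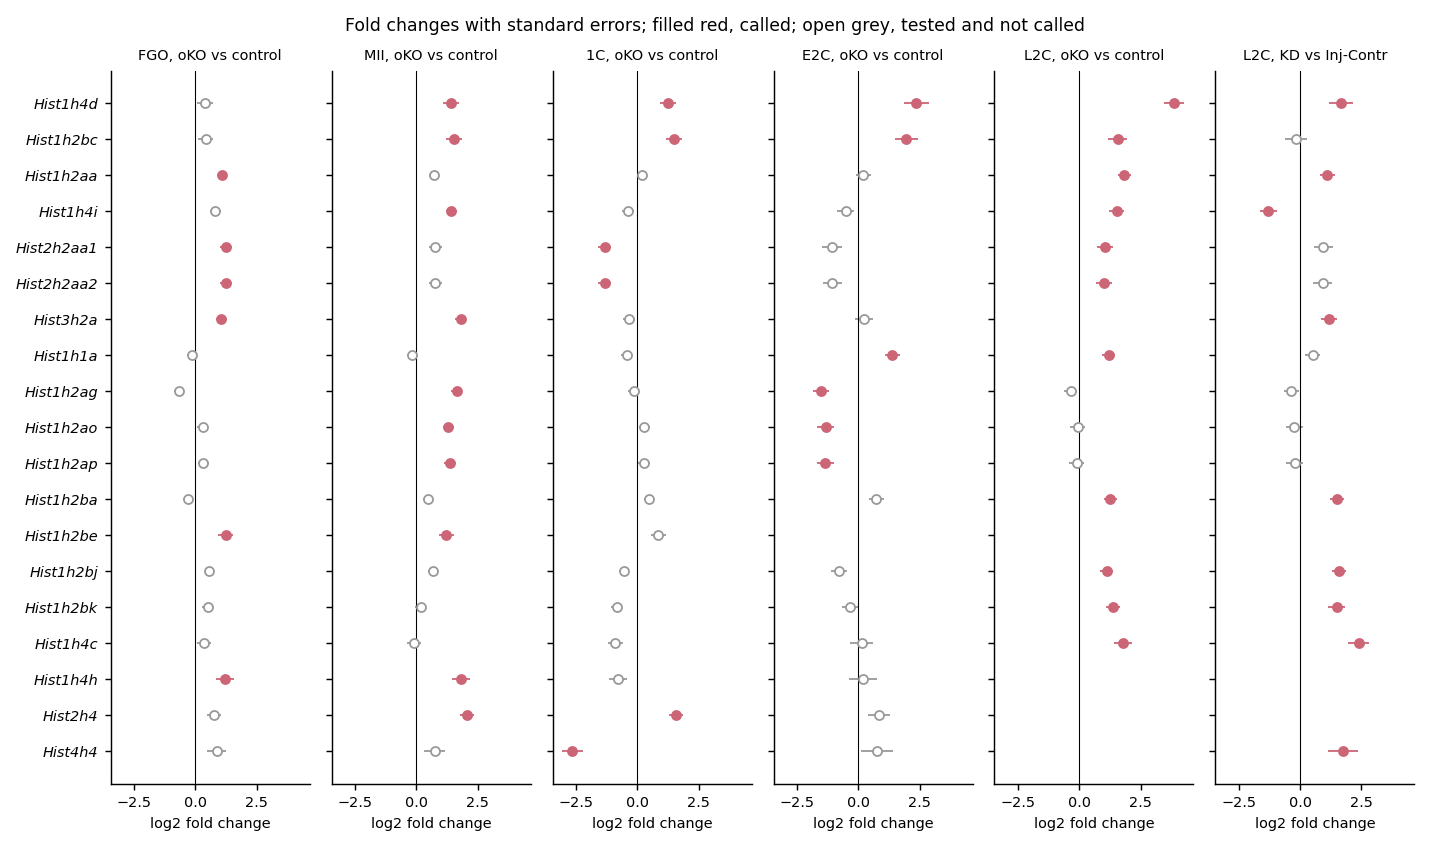
Log2 fold change (horizontal, bars are standard errors) of the 19 histone genes called in at least 2 of 6 comparisons, 1 panel per comparison, each group of 2 libraries. Filled red dots are called and open grey dots tested without a call. Hist1h4d reaches 3.87 in L2C, and Hist4h4 lies at -2.65 in 1C and 1.75 after Trim-away.

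The make-up of summed H4 FPKM, which reads mainly transcripts that carry a tail, differed between the groups. *Hist1h4d* was 55.4% and 59.5% of summed H4 FPKM in control MII, 5.52% and 6.22% in control 1C, 3.07% and 12% in control E2C and 24.6% and 16.2% in control L2C. In oKO it was 64.8% and 64.8%, 28.4% and 26.3%, 32.6% and 27.0%, and 57.5% and 64.3%. In each of these 4 stages both oKO libraries had the larger share, while in FGO both had the smaller one (29.2% and 28.6% in control, 20.5% and 23.0% in oKO). *Hist4h4* was 32.7% and 36.3% in control 1C, 7.40% and 12.6% in oKO 1C, and 2.27% and 0.999% in control E2C. *Hist1h4i* was 58.2% and 44.0% in Inj-Contr and 8.70% and 5.02% in KD.

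**Figure D5:**
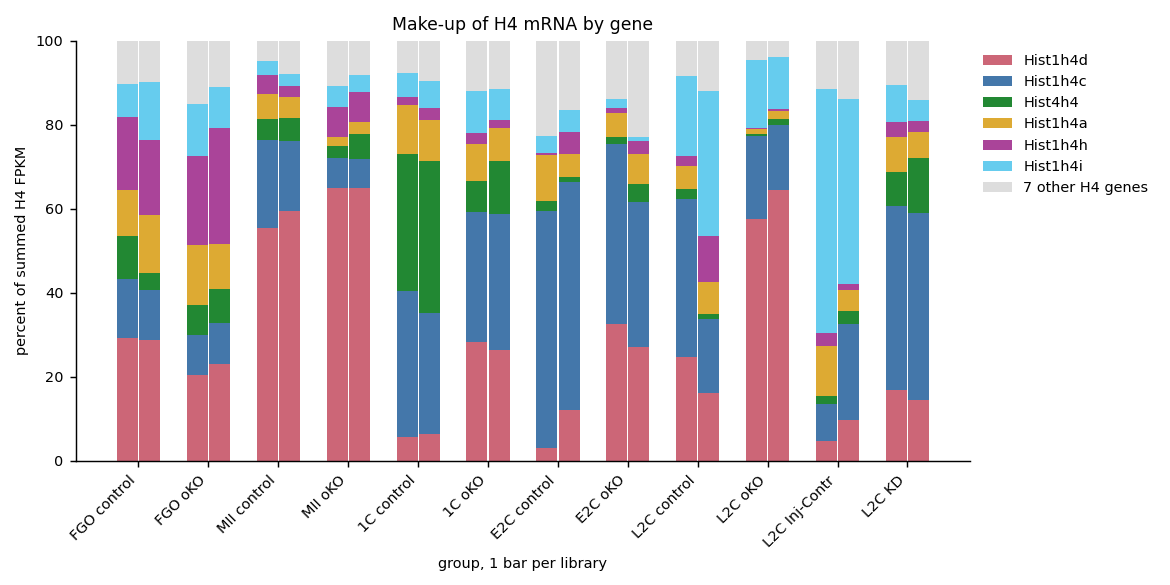
Share of summed FPKM of the 13 H4 genes (vertical, 0 to 100 percent) taken by 6 named genes and by the 7 others together, 1 bar per library. Hist1h4d makes up 57.5% and 64.3% in oKO L2C and 24.6% and 16.2% in control L2C, and Hist4h4 32.7% and 36.3% in control 1C.

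Levels were also set beside the annotated 3′ end of the cluster genes. The 13 with a stem-loop that are annotated more than 100 bases past it to a poly(A) signal had group means of 0.184 to 146 FPKM in control FGO, with a median of 2.14. The 42 with a stem-loop and no such end had 0.238 to 23.7, with a median of 2.01. In control 1C the medians were 2.25 and 3.14 and in oKO L2C 0.836 and 1.15. The highest values of each kind were *Hist1h2bc* in FGO and MII, and *Hist4h4* in control 1C, whose annotation ends before its stem-loop.

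Genes that act on histones and their mRNA were followed as lists. Their counts are to be set beside the shares of all genes called higher and lower. These were 1.7% and 1.31% in FGO, 4.29% and 1.38% in MII and 1.75% and 2.46% in 1C. In E2C they were 3.68% and 8.13%, in L2C 6.8% and 40.7% and after Trim-away 7.79% and 8.35%. Of the genes for histone mRNA 3′ end processing and decay, 0 of 20 were called by limma in FGO, 0 of 18 in MII and 0 of 18 in 1C (at an unadjusted p under 0.05, 2 higher and 0 lower in FGO, 1 and 3 in MII, 3 and 2 in 1C). In E2C 1 rose (*Cpsf3*) and 1 fell (*Ncbp1*) of 17. In L2C 11 of 19 were lower in oKO and 0 higher (median -1.25), led by *Snrpb*, a subunit of the Sm ring (35.8 and 35.9 FPKM in control, 6.39 and 6.63 in oKO), *Eri1*, an exonuclease of the histone stem-loop (3.08 and 3.58 against 0.359 and 0.242), *Snrpd3* and *Coil*. *Slbp* was 79.5 and 87.0 against 42.0 and 101.7 there, with overlapping libraries, and *Lsm10*, of the U7 particle, 30.6 and 32.9 against 33.1 and 24.6. After Trim-away *Cstf2t* and *Ncbp2* were lower of 20 tested, near the 8.35% of all genes called lower there. In control, *Slbp* was 506 and 542 in FGO, 1414 and 1407 in MII and 79.5 and 87.0 in L2C, a rise and a fall that were each called at a step (MII and, from 1C on, E2C and L2C).

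Of the histone chaperone and nuclear assembly genes, 0 of 25, 0 of 23 and 0 of 23 were called by limma in FGO, MII and 1C (at an unadjusted p under 0.05, 4 higher and 0 lower, 4 and 1, and 1 and 5). In E2C *Hat1*, which acetylates new H4, and *Dnajc9* were higher in oKO, and *Set* and *Anp32e* lower. In L2C 12 of 26 were lower and 0 higher (median -0.94), led by *Set* (210 and 196 FPKM against 48.5 and 34.8), *Ubn1*, of the HIRA complex, *Nap1l1* and *Ipo4*. After Trim-away *Hat1*, *Set* and *Npm1* were lower of 24, near the 8.35% of all genes called lower there. Both lists in L2C are to be set beside the 40.7% of all genes called lower and the median of -0.79.

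Of the S phase and histone gene activation list, 1 was higher (*Ccne2*, cyclin E2) and 6 lower of 13 in oKO L2C, near the 40.7% of all genes called lower there, led by *Cdt1* (12.4 and 14.6 FPKM against 3.84 and 3.80), *E2f1*, *Cdk2* and *Ccna2*. In E2C *Cdt1* was higher of 9 tested (3.68% of all genes), and after Trim-away *Cdc6* and *Rrm2* were lower of 12 (8.35% of all genes). *Npat*, the activator of replication-dependent histone genes, which is kept on the 3′ end list, was 6.05 and 6.40 in control L2C and 1.52 and 2.14 in oKO (log2 -1.36). Of the other histone variants *H2afv* was lower in oKO E2C (54.5 and 56.7 against 12.3 and 16.1), *H2afj* higher in MII and lower in L2C, and *Cenpa*, the centromeric H3, lower in L2C (83.3 and 88.6 against 41.6 and 39.1).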

How the data were processed

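RNA-seq of mouse oocytes and embryos was used in 24 libraries of 12 groups, and 16 Stacc-seq samples were not used here. The deposited FPKM values were made by the authors, and the submitters' notes list StringTie 2.1.2, HISAT2 2.2.1, Trim Galore 0.6.6 and the build mm9. The table lists 24085 genes, of which 27 named as dates and 2 without values were left out. FPKM holds no read counts, so the depth is unknown and its precision cannot be given.

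Groups were compared with limma 3.58.1 in R 4.3.3 on log2(FPKM + 1), with a trend, robust moderation and library weights estimated per collection, for genes whose mean over the libraries compared reached 1 FPKM, and all 24 libraries shared 1 estimate of spread (12 residual degrees of freedom). Fold changes on that scale understate changes of low genes. A gene was called at a Benjamini-Hochberg adjusted p of at most 0.05 over all genes with a 2-fold or larger change. The histone genes and the lists of related genes were chosen with earlier results of these data known. Named by rule were the genes outside the clusters, up to 4 called histone genes per direction with the largest change in each comparison, the 2 cluster genes of highest mean FPKM in each class, and up to 4 called genes of each other list; any other gene named was chosen after its values were seen. Alternatives changed the pseudocount (0.1, 5), the filter (none, 5), the scaling (median ratio), the weights, the libraries fitted, a replicate block, each library left out and, for the difference between oKO and KD, the Trim-away groups exchanged. The fit was tested on simulated data.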

Additional observations from a re-analysis of the deposited data

Results flagged for a closer look

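The oKO effect differed between L2C and E2C in 13 of 38 histone genes tested (limma interaction, adjusted over all genes; 8.51% of all genes were called more positive and 29.6% more negative). Positive values mean a more positive log2 fold change in L2C, which for *Hist1h2ag*, *Hist1h2ao* and *Hist1h2ap* was a change nearer 0. The differences were 1.63 for *Hist1h2aa*, 1.16 for *Hist1h2ag*, 1.27 for *Hist1h2ao*, 1.24 for *Hist1h2ap*, 1.90 for *Hist1h2bj*, 1.69 for *Hist1h2bk* and 2.36 for *Hist1h3f*. They were 1.66 for *Hist1h4c*, 2.05 for *Hist1h4i* (adjusted p = 0.00189), 2.1 for *Hist2h2aa1*, 2.06 for its copy *Hist2h2aa2* and 1.15 for *Hist3h2a*. *H3f3b* went the other way, at -1.31 (adjusted p = 0.000546), being 0.70 in E2C and -0.62 in L2C. For *Hist1h4d* the difference was 1.5 (adjusted p = 0.0722), which missed the threshold. Without E2C control replicate 2 there were 6 such genes.

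The effect in oKO L2C differed from that of the libraries titled KD in 5 of 34 histone genes tested (3.19% of all genes were called more positive and 25% more negative in oKO). The differences were 3.80 for *H1foo* (adjusted p = 0.00101), 1.74 for *Hist1h2bc*, 2.2 for *Hist1h4d* and 2.83 for *Hist1h4i* (adjusted p = 0.00029), and -1.26 for *H1f0*, which encodes linker histone H1.0. *Hist1h4i* had log2 fold changes of 1.53 in oKO and -1.30 in KD. These differences rest on the titles of the Trim-away libraries, which the genotype label contradicts. With the groups exchanged, the difference was 0.23 for *Hist1h4i* (adjusted p = 0.671), 2.33 for *H1foo*, 1.42 for *Hist1h2bc*, 5.54 for *Hist1h4d* and 0.22 for *H1f0*, so that *Hist1h4i* and *H1f0* were no longer called. The injected embryos were cultured and the oKO embryos were collected from mated females, which cannot be told apart from the way TDP-43 was removed.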

How the results depend on the processing

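Of 166 calls of a histone gene in a comparison, 1 reversed under an alternative, and 46 were tested and held under every alternative. The reversed one was the difference between oKO and KD of *H1f0*, 0.22 (not called) with the Trim-away groups exchanged, chosen after seeing the data. That exchange gave 17 called histone genes of 34 for oKO against KD. Over all genes it gave 1059 more positive and 3624 more negative of 8152 (260 and 2035 before). A pseudocount of 5 lost 90, median-ratio scaling 32, no filter 21, a pseudocount of 0.1 14, fitting only the libraries compared 5, and no weights 4. With a pseudocount of 5 the counts of called histone genes were 1 in FGO, 4 in MII, 5 in L2C, 1 after Trim-away, and 5, 14, 18 and 7 at the control steps to MII, 1C, E2C and L2C, 8 for L2C against E2C effects and 3 for oKO against KD effects. Over all genes a pseudocount of 5 gave 45 higher and 41 lower in FGO (152 and 117 before). In L2C it gave 227 and 1498 (528 and 3158 before). In MII it gave 141 and 27 (339 and 109 before) and after Trim-away 207 and 329 (631 and 676 before). With a filter at a mean FPKM of 5, 5 of 16 histone genes tested were called in MII. In L2C it was 5 of 10 and after Trim-away 1 of 10. It was 14 of 20, 18 of 22 and 6 of 12 at the steps to 1C, E2C and L2C. For oKO against KD it was 3 of 10. This filter lost 0 calls, and 79 were not tested under it. Over all genes it gave 225 higher and 58 lower of 4416 in MII. In L2C it gave 297 and 1984 of 3705, and after Trim-away 329 and 544 of 4099. Median-ratio scaling gave 5 in FGO, 23 and 22 at the steps to E2C and L2C and 9 for oKO against KD. Fitting only the libraries compared gave 4 in FGO (113 and 103 of all genes, against 152 and 117). In E2C a pseudocount of 0.1 gave 3 and no weights 12 (198 and 439, and 275 and 620, of all genes, against 245 and 541). No filter gave 4 after Trim-away and 2 for oKO against KD. Over all genes these were 455 and 474 (631 and 676 before), and 161 and 1362 (260 and 2035 before). Leaving out each library in turn gave 1 to 10 in FGO, 8 to 12 in MII, 3 to 13 in 1C, 1 to 6 in E2C, 11 to 14 in L2C, 5 to 7 after Trim-away, 9 to 15, 25 to 31, 30 to 38 and 10 to 18 at the 4 steps, 6 to 15 for L2C against E2C and 2 to 5 for oKO against KD; for the last, 2 came without KD replicate 2. A library left alone in its group was assumed to vary like the other groups. Counts over all genes also moved when a library was left out, so these ranges do not describe histone genes alone.

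Same-numbered libraries did not pair: their deviations correlated at -0.222 in FGO, -0.025 in MII, 0.215 in 1C, 0.0934 in E2C, -0.00801 in L2C and -0.136 in Trim-away. With a replicate block the counts were 6, 13, 8, 6, 14 and 8, and 14 and 5 for the differences of effects. With crossed numbers, chosen after seeing the data, they were 8 in FGO and 9 after Trim-away. No paired analysis was possible for the control steps because the stages were collected separately. The depth of the libraries is unknown, so no limit of detection can be given.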
